A study of Mus musculus with 96 samples.

Results

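SOX17 binding in XEN cells was set against SOX17 binding in ES cells after 4 days of GATA6 induction, over every region of the deposited GATA6 binding catalogue. The catalogue holds 42403 regions of the mouse genome (mm10), and none was picked for its SOX17 value. Of these, 42375 entered the test and 28 were described by their pooled values alone. Chromatin immunoprecipitation and sequencing (ChIP-seq) gave 2 SOX17 libraries at day 4 and 2 in XEN cells, among the 96 samples of the series. The day 4 cells were KH2 ES cells (C57BL/6 x 129/Sv) carrying a doxycycline (dox) inducible Gata6 transgene, which had received 1 µg/mL dox for 96 h. The XEN cells were the X10 line (CD1), derived from early embryos, with no transgene and no dox. Both were grown on embryonic fibroblast feeders, which were adsorbed before fixation with DSG and formaldehyde, and both were precipitated with the same SOX17 antibody. Each condition rests on 1 cell line, so cell line, strain, transgene, dox and culture history cannot be told apart from the difference between the conditions. The files hold no RNA values, so the identity of the cells could not be checked on the expression of their markers.

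SOX17 is an HMG-box transcription factor that bends DNA at ATTGT-like sites and marks the primitive endoderm (PrE), the tissue that lines the blastocoel and later gives rise to the extraembryonic yolk sac layers. GATA6 acts upstream of it in this lineage, and XEN cells are the self-renewing culture counterpart of that tissue. The related factor SOX2 pairs with OCT4 on composite SOX-POU sites in pluripotent cells, and SOX17 can pair with OCT4 on a shorter, compressed version of the same site.

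The sequences below show the SOX17 site in regions that gained, lost or kept SOX17. Each is the plus strand of mm10, 69 bases centred on the best SOX17 motif that the deposited table gives for the region, with the motif in capitals. The Arhgap10 motif starts at the edge of its region, with 2 of its 9 bases inside. Mical3, Sod1 and Arhgap10 name regions with some of the largest rises in XEN cells. Irak1bp1, D130040H23Rik and Jam3 name regions with the largest falls. The Col4a2 region carried the highest SOX17 value at day 4 and the Tmem44 region the highest in XEN cells, while the Kti12 region was among the highest in both.
Mical3, chr6:121052155-121052223: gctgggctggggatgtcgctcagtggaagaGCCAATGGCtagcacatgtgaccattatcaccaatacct
Sod1, chr16:90204989-90205057: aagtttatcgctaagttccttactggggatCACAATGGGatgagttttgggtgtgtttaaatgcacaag
Arhgap10, chr8:77407633-77407701: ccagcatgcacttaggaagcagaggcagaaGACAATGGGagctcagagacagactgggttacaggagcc
Irak1bp1, chr9:82348613-82348681: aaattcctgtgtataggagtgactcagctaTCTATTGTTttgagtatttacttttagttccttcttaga
D130040H23Rik, chr8:69323157-69323225: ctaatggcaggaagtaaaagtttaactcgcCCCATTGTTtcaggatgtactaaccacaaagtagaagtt
Jam3, chr9:27172298-27172366: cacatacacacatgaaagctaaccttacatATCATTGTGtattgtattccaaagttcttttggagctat
Col4a2, chr8:11308755-11308823: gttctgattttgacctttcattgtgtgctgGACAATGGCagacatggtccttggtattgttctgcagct
Tmem44, chr16:30483610-30483678: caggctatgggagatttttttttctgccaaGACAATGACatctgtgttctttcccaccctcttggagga
Kti12, chr4:108843718-108843786: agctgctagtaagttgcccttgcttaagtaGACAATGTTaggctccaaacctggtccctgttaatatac

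The motif scores of the 9 sites overlapped between the groups of regions. The table scored the 3 rising sites 8.89, 12.1 and 12.8, and the 3 falling sites 8.28, 10.3 and 11.2. The Col4a2 and Tmem44 sites, which moved in opposite directions, both scored 12.2. Over all regions with a motif, the median best score was 9.77 both where SOX17 was higher and where it was lower in XEN cells, against 9.73 where it was not called.

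SOX17 ranked the regions similarly in both cell types, less so among regions with more SOX17, and a wide minority moved. Values are in RPM, the number of reads on a region scaled to 1000000 reads of its library. The deposited values show steps that fit 1 read added to every region in every library, so a region at the value of a single read held none. Single day 4 and XEN libraries correlated with Spearman coefficients of 0.735 to 0.781 across regions. The coefficient was 0.925 between the 2 day 4 libraries and 0.923 between the 2 XEN libraries. The pooled values of the 2 conditions, each a mean of 2 libraries, gave 0.787. The coefficient was 0.708 on RPM minus input, 0.731 on RPM per kb and 0.543 among regions above the median SOX17 value. Against XEN cells, earlier SOX17 profiles correlated less and less with time from day 4, with coefficients of 0.48 at day 2, 0.421 at day 1, 0.336 at 16 h, 0.267 at 8 h and 0.255 before dox. These coefficients are descriptions across regions, which share libraries, depth and base composition. The median region held 1.06 and 1.05 RPM in the day 4 libraries and 0.844 and 0.856 RPM in the XEN libraries. In the input, which is chromatin sequenced without an antibody, the median region held 0.452 RPM at day 4 and 0.483 RPM in XEN cells.

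SOX17 was lower in XEN cells at 7179 regions, 16.9% of those tested, and higher at 2740, 6.47%. A region was called where the limma test gave a Benjamini-Hochberg adjusted p under 0.05 over all regions and the change was at least 2-fold. Changes are on a log2 scale, XEN cells minus day 4, after adding 0.182 RPM, which understates the change of weak regions. The median change over all regions was -0.20, with quartiles of -0.73 and 0.29, and for the 4 pairings of a day 4 with a XEN library it lay between -0.25 and -0.15. The libraries of a pair differed by a median of 0.35 (day 4) and 0.27 (XEN cells), and libraries of different conditions by 0.55 to 0.61. The share of called regions that were higher was 27.6%. This split depends on the scaling, since it was 44.9% (4236 higher, 5203 lower) when libraries were scaled to their reads on the regions, which brought the median change to 0.01, and 42.8% when the changes were centred on their median. Weaker binding in every cell and binding in fewer cells cannot be told apart in such data.

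**Figure D1:**
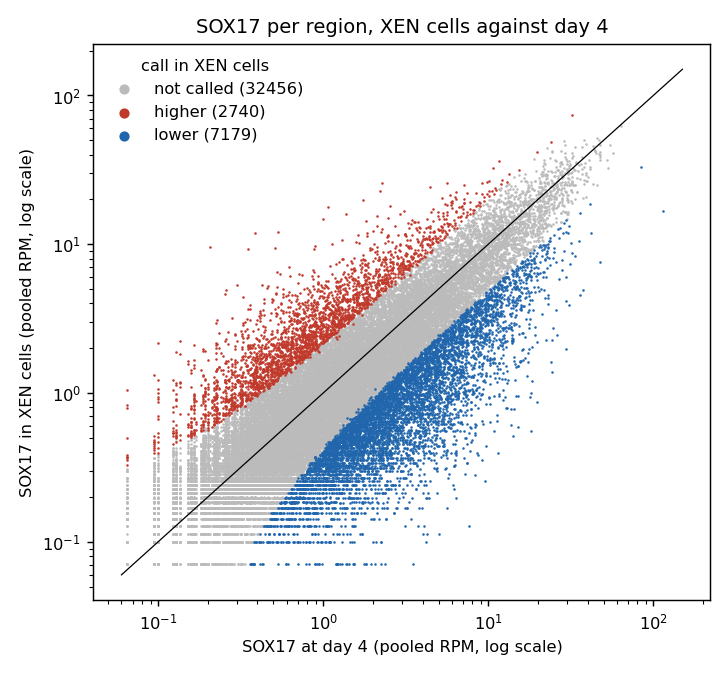
SOX17 in pooled RPM at each region, day 4 on the x axis and XEN cells on the y axis, both on log scales, with the line of equal values. The 7179 regions called lower in XEN cells (blue) and the 2740 called higher (red) lie on either side of the 32456 not called (grey), and the region with 114 RPM at day 4 lies far below the line.

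The 4 libraries held 17007831, 14218327, 17763795 and 11687562 reads in the order day 4 deeper, day 4 shallower, XEN deeper and XEN shallower, of which 10.8%, 10.1%, 8.59% and 8.77% lay on the regions. A single read was worth 0.0588, 0.0703, 0.0563 and 0.0856 RPM in that order. The 2 day 4 libraries differed beyond counting error, with a chi-square of 2.55 per degree of freedom, while the 2 XEN libraries came close to counting error at 1.1. The methods give 2 separate chromatin preparations per condition, so the spread in the test is that between preparations. limma drew the spread of each region toward that of regions with similar values, with 25.1 prior against 2 residual degrees of freedom. The p-value of a region therefore rests mostly on this shared spread.

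The 10 largest gains in XEN cells lay in regions with 0.205 to 2.26 RPM at day 4 in pooled values, against a median of 1.1 RPM over all regions. Ranking by the change favours low day 4 values, so this is a description. The 10 named by size, among strong regions whose libraries did not overlap, changed by 3.39 to 4.76, with limma adjusted p between 1.45e-11 and 2.37e-09. All 10 were closed in ES cells, 9 belonged to the class that binds GATA6 late, and GATA6 was also higher in XEN cells at all 10, by 2.92 to 3.65. Of all regions called higher, 85.2% were closed, 76.7% were late and GATA6 was higher at 88.8%. The shares over all regions were 61.3%, 33.6% and 14.2%.

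The largest rise lay in an intron of Garem1, a gene for an adaptor of growth factor receptor signalling. Its SOX17 value was 0.0588 and 0.352 RPM in the day 4 libraries, and 9.74 and 9.33 RPM in the XEN libraries, a change of 4.76 ± 0.34 (SE). Every XEN library stood above every day 4 library there, as the choice of the 10 regions required. An intronic region of Mical3, which encodes a flavoprotein of vesicle trafficking, lay 78.9 kb from the start site at chr6:121051692-121052351. It rose from 0.353 and 0.422 RPM to 12.7 and 11.0 RPM, by 4.4 ± 0.28. SOX17 had stayed at 0.392 RPM before dox, 0.477 RPM at day 1 and 0.473 RPM at day 2 in the Mical3 region, all close to the day 4 level.

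The next rises were near genes of varied function. The region 15.7 kb from Sod1, the cytosolic superoxide dismutase, at chr16:90204739-90205271, held 0.176 and 0.844 RPM at day 4 and 9.23 and 9.67 RPM in XEN cells. An intron of Arhgap10, a GTPase activating protein, at chr8:77406521-77407664, held 0.941 and 1.2 RPM at day 4 and 16.7 and 18.7 RPM in XEN cells. The region 118.0 kb from Ednrb, the endothelin B receptor gene, reached the highest XEN values among the 10, at 23.1 and 28.4 RPM, up from 3.12 and 1.41 RPM. The day 4 and XEN libraries did not overlap in these 3 regions, again by choice. An intron of Nrg1, which encodes the ErbB ligand neuregulin, held 1.47 and 2.04 RPM at day 4 and 19.9 RPM in both XEN libraries. The others named were near Tsc22d1, Dnajc15, Slc22a8 and Cntn4, with changes of 4.15, 4.11, 3.67 and 3.42. Input at the 10 regions was 0.311 to 0.961 RPM at day 4 and 0.742 to 2.54 RPM in XEN cells, and all 10 kept their call, with changes of 2.28 to 3.84, when the input change of the region was subtracted.

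The largest losses lay in regions that held more SOX17 at day 4 than before dox, at 7.6 to 19.7 RPM against 0.197 to 3.7 RPM in pooled values. Ranking by the fall favours high day 4 values. The 10 named falls changed by -4.66 to -4.11, with limma adjusted p between 6.46e-12 and 3.09e-10. All 10 were closed in ES cells, and 5 belonged to the early and 5 to the late GATA6 class. Of all regions called lower, 64.9% were closed, 42.4% early and 36% late, against 61.3%, 28% and 33.6% of all regions. GATA6 was lower in XEN cells at all 10, by -2.77 to -2.11, against 46% of all regions called lower for SOX17 and 10.5% of all regions. OCT4 held 1.36 to 20.3 RPM at the 10 regions at day 4 against 0.133 to 1.2 RPM in XEN cells. The OCT4 values in XEN cells come from a single library.

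The largest fall was intergenic, 480.9 kb from Irak1bp1, a gene for an IRAK1 binding protein, at chr9:82348358-82349153. It held 8.23 and 6.96 RPM at day 4 and 0.169 and 0.0856 RPM in XEN cells. The 237 reads of day 4 faced 2 reads of XEN cells, a ratio of 112 after division by library size, with an exact 95% counting interval of 30.6 to 928. The region near Jam3, a junctional adhesion molecule gene, at chr9:27171850-27172589, carried 12.8 RPM at day 1 and 22.7 RPM at day 2. It then held 13.2 and 5.98 RPM at day 4 and 0.169 and 0.342 RPM in XEN cells, at or under the 0.752 RPM seen before dox. The falls near the chloride channel family genes Clic4 and Clic5 were of the same order, from 18.5 and 9.92 RPM to 0.338 and 0.684 RPM and from 14.6 and 8.37 RPM to 0.45 and 0.342 RPM. No day 4 library overlapped a XEN library in these regions, as their choice required. An intron of Agpat4, a lysophosphatidic acid acyltransferase gene, fell from 14.8 and 15.4 RPM to 0.676 and 0.513 RPM. The remaining ones lay near D130040H23Rik, Col4a2, E330034G19Rik, Tbl1xr1 and Fabp2, with changes of -4.61, -4.25, -4.24, -4.15 and -4.11. Input at the 10 regions was 0.255 to 2.71 RPM at day 4 and 0.0995 to 0.438 RPM in XEN cells. With the input change of the region subtracted, all 10 kept their call, with changes of -4.08 to -1.39.

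**Figure D2:**
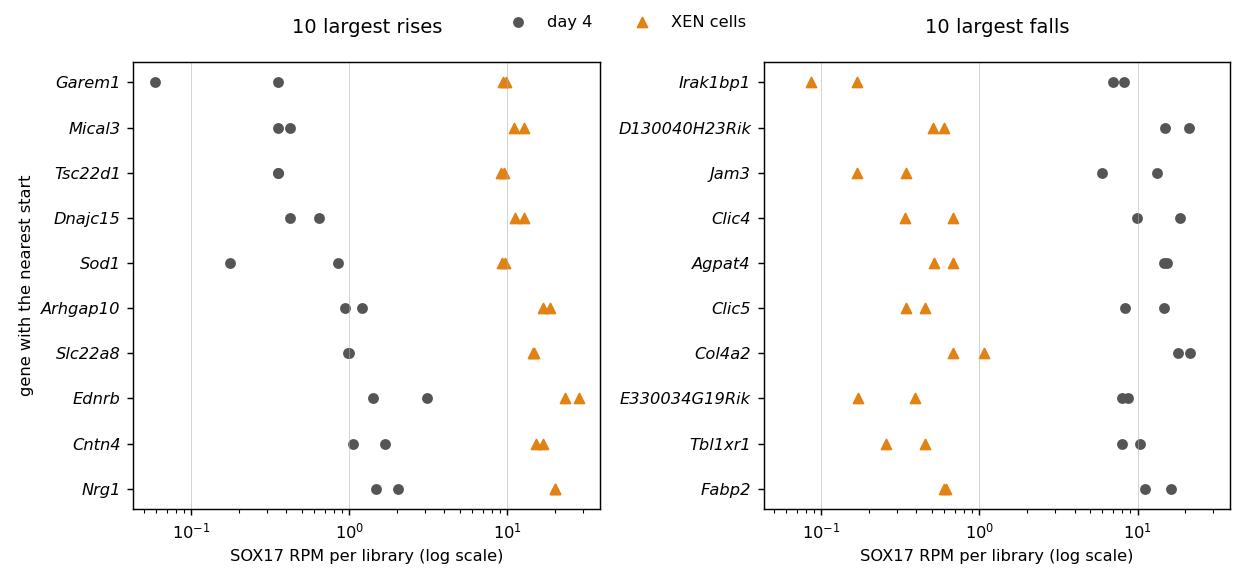
SOX17 RPM per library, on a log x axis, at the 10 regions with the largest rises (left) and the 10 with the largest falls (right), named by the gene with the nearest start. Circles are the 2 day 4 libraries and triangles the 2 XEN libraries, and the 2 kinds are separated in every region, by choice of the regions.

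Among the regions with most SOX17, some changed and others were not called. The highest day 4 value lay in an intron of Col4a1, 3.9 kb from the start of Col4a2, at chr8:11308478-11310403, where the libraries held 140 and 88.5 RPM at day 4 and 15.1 and 18.5 RPM in XEN cells, a change of -2.72 ± 0.18 (limma adjusted p = 3.02e-11). Input in the region was also lower in XEN cells, at 1.03 RPM against 6.53 RPM, and subtracting the input change left -0.24 and no call. An intron of Slc7a6, an amino acid transporter gene, held 102 and 66.6 RPM at day 4 and 32.2 and 33.6 RPM in XEN cells, a change of -1.32 ± 0.17 (limma adjusted p = 8.08e-07). That change was -0.48 once the input change was subtracted. The Kti12 region, in an intron of Txndc12, held 71.4 and 55.6 RPM at day 4 and 62.1 and 63.0 RPM in XEN cells, so the libraries overlapped. Its change was -0.01, with a 95% interval of -0.32 to 0.29. The Usp48 and Arid5b regions were not called either, at -0.43 (interval -0.81 to -0.05) and -0.21 (interval -0.52 to 0.10).

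The highest XEN value lay 67.4 kb from Tmem44, a transmembrane protein gene, at chr16:30482395-30484321. SOX17 rose there from 31.6 and 32.5 RPM to 71.0 and 75.6 RPM, by 1.19 ± 0.15 (limma adjusted p = 5.87e-07), and every XEN library was above every day 4 library. Input held 2.35 RPM at day 4 and 5.43 RPM in XEN cells, and the change was 0.05 after subtracting the input change of the region and 0.77 after subtracting that of its chromosome, with no call in either. The region near Kdr, the gene of a VEGF receptor, held 55.2 and 35.9 RPM at day 4 and 51.2 and 52.2 RPM in XEN cells, which overlap (0.21, interval -0.13 to 0.56). The regions in Clic6 and near Flrt3 were among the 28 without library values at day 4, and their pooled values were 51.9 and 51.2 RPM at day 4 and 65.1 and 59.3 RPM in XEN cells. The 28 regions had 30.7 to 53 RPM at day 4 and a median pooled change of -0.31, and 6 of them were lower in XEN cells by 2-fold or more and 0 higher.

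The falls at Col4a1 and Col4a2 formed a run along the chromosome. Both genes encode the chains of the main collagen IV network of basement membranes and share a divergent start. Of the 18 regions assigned to them, 14 were lower in XEN cells and 0 higher. The 14 followed each other without a break over 88.1 kb of chromosome 8, from 11233885 to 11321948, with changes of -4.25 to -1.18. GATA6 was lower at each of the 14, against 46% of all regions called lower for SOX17 and 10.5% of all regions. The region just inside Col4a2 at chr8:11315171-11316298 fell from 51.0 and 44.2 RPM to 7.66 and 7.53 RPM, a change of -2.62. The 4 regions from 11367027 onward, further into Col4a2, were not called, and the strongest of them held 25.4 and 30.3 RPM at day 4 and 19.7 and 21.4 RPM in XEN cells (-0.43, limma adjusted p = 0.0576). Input at the 14 regions had a median of 2.02 RPM at day 4 and 0.301 RPM in XEN cells. With the input change of each region subtracted, 8 of the 14 were called lower, with changes of -1.94 to -0.24 over the 14.

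The classes of regions moved unequally. The deposited table sorts regions by their GATA6 profile over the time points and XEN cells into early, late and transient classes, and these classes therefore already hold GATA6 in XEN cells. Among late regions, 14.8% were higher and 18.2% lower in XEN cells, with a median change of 0.00. Among early regions, 3.44% were higher and 25.7% lower (median -0.41), and among transient regions 1.41% and 9.49% (median -0.18). These are to be read against 6.47% and 16.9% over all regions and a median of -0.20. With scaling to the reads on the regions the class medians were 0.235, -0.175 and 0.000. Late regions made up 76.7% of the regions that were higher and 33.6% of all.

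Regions that recruited pluripotency factors away from their ES cell sites lost SOX17 most often of the 3 classes of pluripotency factor binding. The table marks regions bound by OCT4, SOX2 or ESRRB before dox and regions where these factors appeared during the induction, called ectopic. Ectopic regions were higher in 1.78% and lower in 33.4% of cases, with a median change of -0.59. Late ectopic regions were lower in 43.9% of cases (median -0.82). Regions bound before dox were higher in 1.78% and lower in 18.5%, and regions with neither in 9.27% and 12.1%. Ectopic regions made up 32.7% of the regions that were lower and 16.6% of all, and regions with neither 89.7% of those that were higher and 62.6% of all. Ectopic regions also held more SOX17 at day 4, at a median of 3.18 RPM against 0.874 RPM in regions with neither, and a strong region is more easily called. Among regions between the median and the upper quartile of day 4 SOX17, 29% of those above the median of day 4 OCT4 and 24.1% of those below it were lower, and 2.94% and 9.28% were higher, while their day 4 SOX17 medians were 1.87 and 1.52 RPM. The split by day 4 SOX2 ran the other way, with 22.9% above and 30.2% below its median lower among the same regions, and 28% and 36.1% among regions over the upper quartile of day 4 SOX17.

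Chromatin of the ES cells also sorted the gains. Regions closed before dox were higher in 8.99% of cases, moderately accessible ones in 2.73% and accessible ones in 1.36%, while the shares that were lower were 17.9%, 16.1% and 12.2%. Closed regions made up 85.2% of the regions that were higher and 61.3% of all. Promoter regions were higher in 0.755% and active enhancers in 1.97% of cases, against 10.8% in facultative heterochromatin and 9.51% in chromatin with no mark (naive). Regions over 100 kb from any start were higher in 9.41% of cases and those within 1 kb in 1.67%.

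**Figure D3:**
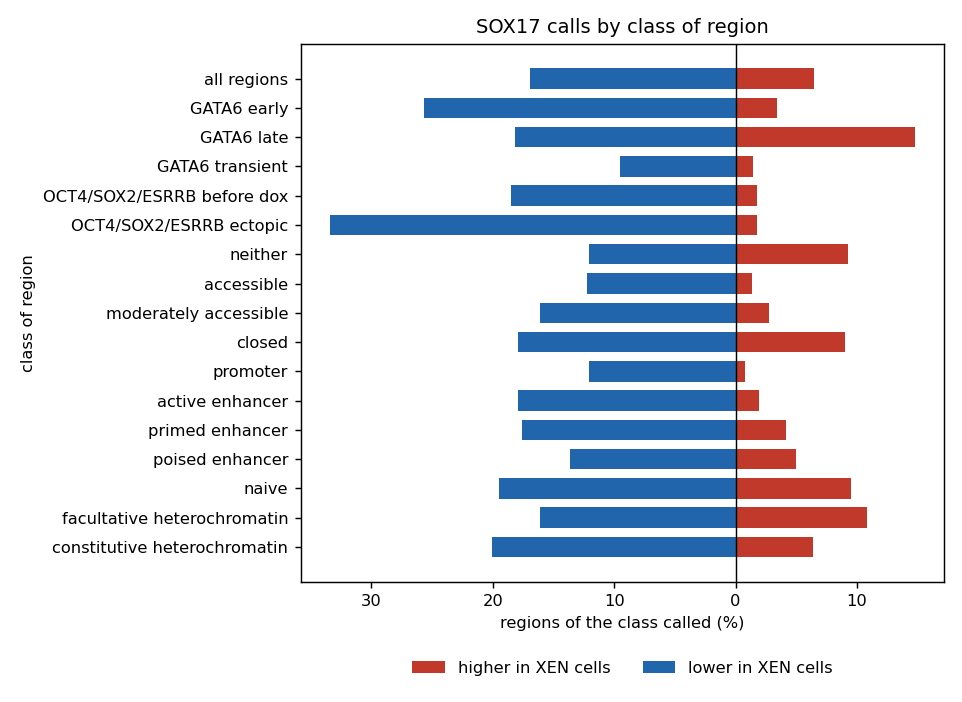
Percent of the tested regions in each class that were called higher (red, to the right) or lower (blue, to the left) in XEN cells, with all regions in the top bar. Late and closed regions reach 14.8% and 8.99% on the right, and ectopic regions 33.4% on the left.

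Before day 4 the 2 sets of called regions already differed. The earlier libraries took no part in the calls, but the sets were sorted in part by day 4 SOX17. A difference at earlier times can follow from that sorting, so it is given as a description. In the set that was lower in XEN cells, median SOX17 went from 0.585 RPM before dox and 0.65 RPM at 16 h to 1.56 RPM at day 1 and 2.01 RPM at day 2. In the set that was higher, it was 0.339, 0.35, 0.442 and 0.474 RPM at these times, and OCT4 and SOX2 also stood low at day 4, at 0.442 and 0.586 RPM. In the lower set OCT4 held a median of 1.5 RPM at day 4 and 0.533 RPM in XEN cells, and SOX2 1.53 and 0.488 RPM. Over all regions OCT4 held 0.756 and 0.533 RPM and SOX2 0.815 and 0.517 RPM. OCT4 in XEN cells was measured in a single library. The day 4 SOX17 medians, 2.58 RPM in the lower and 0.734 RPM in the higher set, follow in part from the calls and are given as a description.

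**Figure D4:**
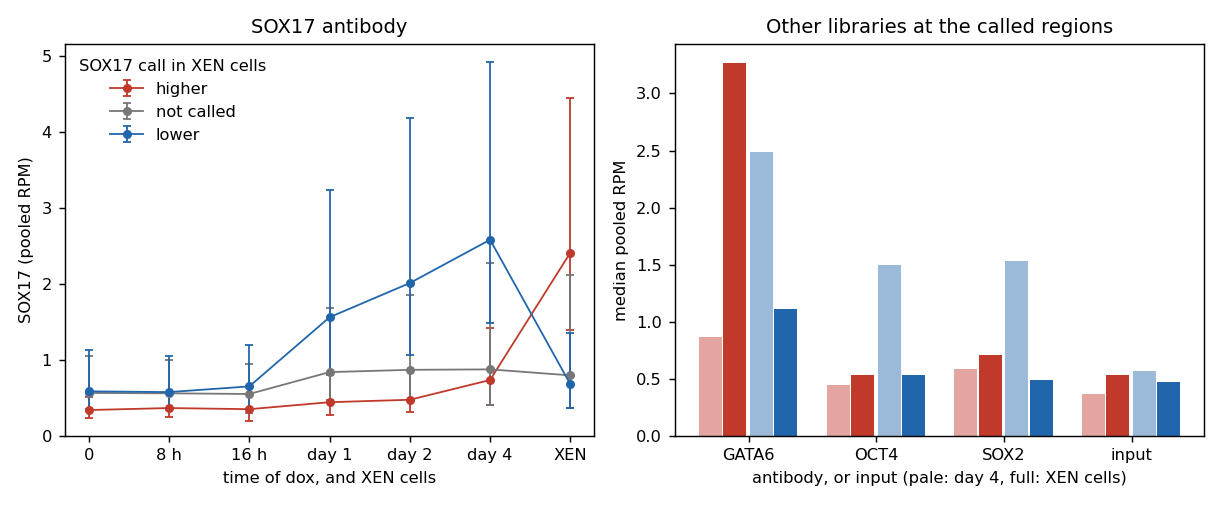
Left, pooled SOX17 RPM (median, with bars from the first to the third quartile) over the time of dox and in XEN cells for the regions called higher (red), lower (blue) or neither (grey) in XEN cells. Right, median pooled RPM of GATA6, OCT4, SOX2 and input in the higher (red) and lower (blue) set, pale for day 4 and full for XEN cells. OCT4 in XEN cells is a single library. The lower set climbs from 0.585 RPM before dox to 2.01 RPM at day 2, while the higher set stays between 0.339 and 0.474 RPM.

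The called sets were also described by short sequence words. Words were counted on both strands in windows of 201 bp around the GATA6 summit. The SOX core CATTGT was present in 32.5% of regions that were higher, 29.3% of those that were lower and 20.8% of those not called, against 23% of all. The compressed SOX-POU word TTGTATGC was present in 0.328%, 1.88% and 0.576% (0.781% of all). The canonical SOX-POU word TTGTNATGC was present in 0.328%, 1.63% and 1.57% (1.5% of all), and the octamer ATGCAAAT, which can overlap it, in 0.876%, 3.75% and 3.01% (3% of all). The GATA word AGATAA was present in 50.4%, 52.1% and 55.1% (54.3% of all). A match is a description of letters and not of a bound site.

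SOX17 and GATA6 changed with the same sign at 98.4% of the regions called higher for SOX17 and 97.1% of those called lower. Among regions not called it was 66.7%. GATA6 came from separate libraries of the same 2 cell types, tested in the same way, and was higher in XEN cells at 14.2% (6019) and lower at 10.5% (4445) of the 42403 regions. The labels list 3 GATA6 libraries at day 4, and the pooled values split into 2. Whether 1 was left out or some were merged is unknown. GATA6 was higher at 2434 regions where SOX17 was higher, which is 88.8% of the SOX17 set and 40.4% of the GATA6 set, and lower at 2. GATA6 was lower at 3303 regions where SOX17 was lower, which is 46% of the SOX17 set and 74.3% of the GATA6 set, and higher at 0. At the other 3876 regions of that SOX17 set, 54%, GATA6 was not called. Over the 7179 regions that lost SOX17 the median change was -1.48 for SOX17 and -0.95 for GATA6. Over the 2740 that gained it, the medians were 1.36 and 1.65. The calls used the SOX17 change, so these medians favour it in size. Across all regions the changes correlated with a Spearman coefficient of 0.748 and a Pearson coefficient of 0.799, over regions that share their input and base composition. All are GATA6 binding regions, so SOX17 sites outside that catalogue are not covered.

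The difference between the SOX17 and the GATA6 change was tested for each region with limma over all 8 libraries. It was called below 0 at 7 regions, 0.0165%, and above 0 at 1, 0.00236%. An unadjusted limma p under 0.05 was found at 6962 regions, 16.4%, above the share of 0.05 that no difference anywhere would give. The few calls therefore do not show that the changes were alike elsewhere. Among the 7 called below 0, the largest gap was near D130040H23Rik, an uncharacterised zinc finger gene, at chr8:69322766-69323536. SOX17 went there from 21.2 and 14.9 RPM to 0.507 and 0.599 RPM, and GATA6 from 4.16 and 3.40 RPM to 0.391 and 0.96 RPM, a difference of -2.40 ± 0.43 (limma adjusted p = 0.0315). In an intron of Paox, near Echs1, a gene of mitochondrial fatty acid oxidation, SOX17 fell from 27.8 and 28.6 RPM to 6.7 and 6.76 RPM while the GATA6 change was -0.39 and not called (difference -1.65, adjusted p = 0.00298). The other regions below 0 were near Smlr1, Lancl1, Slc44a3, AA986860 and Armc2. The region above 0 lay in a coding exon of Nr5a2, a nuclear receptor gene of pluripotent cells, with 0.529 and 1.34 RPM of SOX17 at day 4 and 4.0 and 1.54 RPM in XEN cells. GATA6 fell by 1.49 there, input held 0.622 RPM at day 4 and 4.24 RPM in XEN cells, and the SOX17 change turned from 1.37 to -1.15 when the input change was subtracted. It was not called without the deeper day 4 library (0.82) or the deeper XEN library (0.73). These 8 calls rest on the scaling and on single libraries, as there were 0 in either direction with scaling to the reads on the regions and 0 to 17 above and 0 to 699 below when a library was left out. The count below 0 was 0 without either XEN SOX17 library or without the shallower XEN GATA6 library, and 245 and 699 without the deeper and the shallower day 4 SOX17 library.

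Before subtracting input, SOX17 near PrE regulators was called in both directions, in shares not far from those of regions at large. A region counts for the gene with the nearest start within 100 kb, and lists are described by their counts and their median. Of 81 tested regions of 7 transcription factor genes of this lineage, 2 were higher and 12 lower (2.47% and 14.8%, against 6.47% and 16.9% of all regions). Their median was the -0.20 that all regions had. With the input change of the region subtracted, 0 of the 81 were higher and 21 lower, against 2225 higher and 8064 lower of all 42375 regions tested. The share that was lower then exceeded that of all regions, and the share that was higher was below it. The strongest region near Sox17 itself, 40.3 kb away at chr1:4536608-4538990, held 40.9 and 32.5 RPM at day 4 and 33.3 and 36.3 RPM in XEN cells. The libraries overlapped there and the change was -0.07 (interval -0.40 to 0.27), and none of the 8 Sox17 regions was called. The strongest region of the forkhead factor gene Foxa2 held 22.0 and 18.6 RPM at day 4 and 23.0 and 21.6 RPM in XEN cells (0.14, interval -0.22 to 0.50), although 2 of its 27 regions were higher and 4 lower. The strongest Gata4 region had pooled values of 34.2 and 27.4 RPM. In a coding exon of Gata6, the gene of the transgene, SOX17 held 6.7 and 9.57 RPM at day 4 and 14.6 and 12.3 RPM in XEN cells, a change of 0.73 (interval 0.30 to 1.16) that is under 2-fold, and input held 4.41 and 3.79 RPM.

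Genes of endocytosis lost SOX17 at many regions. Of 35 tested regions of the endocytic receptor list, 20 were lower in XEN cells (57.1%, against 16.9% of all regions) and 0 higher, with a median of -1.19, which is -0.99 relative to all regions. With the input change of the region subtracted, 18 were lower, and with scaling to the reads on the regions 16. Of all 42375 regions tested, these settings gave 8064 and 5203 lower. Lrp2, the gene of the endocytic receptor megalin, had 10 of 17 regions lower. Its strongest region, 21.8 kb from the start at chr2:69607278-69608480, held 15.6 and 13.3 RPM at day 4 and 1.24 and 1.2 RPM in XEN cells, a change of -3.38 ± 0.24 (limma adjusted p = 6.57e-11). Both day 4 libraries stood well above both XEN libraries. Cubn, the gene of its partner cubilin, had 5 of 7 tested regions lower, though its strongest region had pooled values of 37.1 RPM at day 4 and 31.7 RPM in XEN cells. Lrpap1, which encodes a chaperone of these receptors, had 4 of 6 lower, and its strongest region went from 22.6 and 20.0 RPM to 9.23 and 9.07 RPM, a change of -1.2 that fell short of 2-fold with scaling to the reads on the regions (-0.94). The strongest region of Dab2, an endocytic adaptor gene, held 19.3 and 16.7 RPM at day 4 and 16.5 and 19.0 RPM in XEN cells (-0.02, interval -0.40 to 0.35).

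Basement membrane genes were led by the collagen IV locus described above. Of 105 tested regions, 25 were lower and 1 higher (23.8% and 0.952%, against 16.9% and 6.47% of all regions), with a median of -0.46. Col4a1 and Col4a2 held 14 of the 25, and of the 87 regions of the other genes 11 were lower (12.6%), under the share of all regions. Agrn, the agrin gene, fell at its strongest region from 9.88 and 9.85 RPM to 1.63 and 2.91 RPM, a change of -2.08. The laminin gene Lamc1 held 60.1 and 34.4 RPM at day 4 and 37.9 and 39.6 RPM in XEN cells at its strongest region, which overlap (-0.23, interval -0.61 to 0.15). The single rise lay 28.3 kb from Fn1, the fibronectin gene, from 2.94 and 4.85 RPM to 7.71 and 9.33 RPM (1.13 ± 0.25, limma adjusted p = 0.000759). That call was lost without the deeper day 4 library (0.78), without the shallower XEN library (0.99) and with the input change of the region subtracted (0.55).

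Regions of signalling genes and endoderm markers held calls in both directions, as regions at large did (6.47% higher, 16.9% lower). Of 89 regions of PDGF and FGF signalling genes, 6 were higher and 10 lower (6.74% and 11.2%, median -0.23), and 0 and 15 with the input change of the region subtracted. Of all 42375 regions tested, 2225 were higher and 8064 lower with that subtraction. The strongest region of Pdgfra, the receptor gene that marks the PrE, held 32.6 and 28.6 RPM at day 4 and 33.0 and 31.8 RPM in XEN cells, with a change of 0.09 (interval -0.25 to 0.42). A region 65.6 kb from Etv5, an ETS factor gene downstream of FGF, fell from 9.7 and 8.51 RPM to 1.41 and 1.71 RPM, a change of -2.42. Of the FGF feedback genes, Dusp6 had 2 of 9 regions higher and Spry4 1 of 11, and neither had one that was lower. The Spry4 call (1.03) was lost in 5 alternatives, with values of 0.09 to 0.90, among them those without the deeper day 4 or the shallower XEN library. Of 82 regions of visceral endoderm markers, 23 were lower and 4 higher (28% and 4.88%, median -0.47). Of all regions classed as bound by SOX17 from peak calls, 30.9% were lower and 3.81% higher. With the input change of the region subtracted, 26 of the 82 visceral marker regions were lower and 2 higher. Lrp2 and Cubn, already counted above, held 10 and 5 of the 23 that were lower without it, and 6 of 16 genes had such a region. Otx2, a homeobox gene of anterior visceral endoderm, fell at its strongest region from 5.23 and 4.57 RPM to 0.676 and 0.428 RPM, and Cer1, a gene of a secreted Nodal and BMP antagonist, from 2.12 and 1.83 RPM to 0.507 and 0.513 RPM, a change of -1.64 that lost its call (-0.70) with an offset 10 times larger. Of 31 regions of parietal endoderm markers, 2 were higher and 4 lower (6.45% and 12.9%, median -0.33), and 1 and 5 with that subtraction. Thbd, the thrombomodulin gene, rose from 0.529 and 0.914 RPM to 1.8 and 2.22 RPM, by 1.31, and was not called without the deeper day 4 library (0.99) or the shallower XEN library (1.17). Pth1r, the parathyroid hormone receptor gene, held 36.5 and 29.3 RPM at day 4 and 32.2 and 31.0 RPM in XEN cells (-0.05, interval -0.39 to 0.29).

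Regions of pluripotency genes lost SOX17 more often than regions at large. Of 147, 44 were lower and 2 higher (29.9% and 1.36%, against 16.9% and 6.47% of all regions), with a median of -0.63, and 13 of 18 genes had a region that was lower. A strong region is more easily called. Of all regions classed as bound by SOX17 from peak calls, 30.9% were lower and 3.81% higher, with a median of -0.52. The list was not compared with regions of equal SOX17 strength. A region 44.3 kb from Nanog, in an intron of Slc2a3, fell from 9.53 and 8.72 RPM to 1.86 and 1.28 RPM, a change of -2.43 ± 0.25 (limma adjusted p = 4e-08). A region 70.7 kb from Sox2 fell from 5.06 and 2.81 RPM to 0.338 and 0.171 RPM, and one in an intron of Dppa4 from 5.94 and 7.74 RPM to 0.901 and 0.856 RPM. The day 4 and XEN libraries were apart in all 3. Tbx3, a T-box gene of naive ES cells and of endoderm, had 13 of 23 regions lower, Klf5 6 of 18 and Sall4 5 of 13. The strongest region of Klf4 was not called, at 33.3 and 26.9 RPM against 26 and 24.4 RPM (-0.25, interval -0.59 to 0.10), and that of Pou5f1, the OCT4 gene, changed by -0.92, under 2-fold. OCT4 in the Nanog region held 10.5 RPM at day 4 and 1.07 RPM in the single XEN library.

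Regions near marker genes of other cell types were counted as well, although SOX17 in such regions does not measure whether those cells were present. Of 20 regions of feeder fibroblast markers, 3 were higher and 0 lower (15% and 0%, against 6.47% and 16.9% of all regions, median -0.01), and 0 were called with the input change of the region subtracted. A region in Pdgfrb, a fibroblast receptor gene, rose from 0.764 and 0.492 RPM to 1.58 and 1.8 RPM, by 1.22. It was not called without the shallower day 4 library (0.98) or the shallower XEN library (1.14), or with the input change of the region (0.38) or of the chromosome (0.96) subtracted. The strongest region near Col1a2, the gene of a collagen I chain, held 5.82 and 6.68 RPM at day 4 and 11.8 and 12.9 RPM in XEN cells, a change of 0.97 that is under 2-fold. Of the other 8 genes with a region, Fap reached 2.04 RPM in 1 library, and the strongest regions of Prrx1, Thy1, Dcn, Postn, Col3a1, Twist1 and Col1a1 stayed at or under 1.03 RPM in every library. Of 28 regions of trophoblast markers, 1 was higher and 5 lower (3.57% and 17.9%, against 6.47% and 16.9% of all regions, median -0.20). Among 43 regions of adhesion genes, 8 were higher and 9 lower (18.6% and 20.9%, against 6.47% and 16.9% of all regions, median 0.02), and 5 and 8 with the input change of the region subtracted. That subtraction left 2225 higher and 8064 lower of all 42375 regions tested. Without subtracting input, Cdh1 and Itga6 held 15 of the 17 calls. Cdh1, the E-cadherin gene, had 7 of 9 regions lower, and the strongest fell from 13.9 and 14.5 RPM to 2.03 and 2.48 RPM, a change of -2.57 ± 0.23 (limma adjusted p = 2.81e-09). Itga6, the gene of the laminin-binding integrin α6, had 7 of 18 regions higher and 1 lower. Cdh2, the N-cadherin gene, rose at its strongest region from 1.29 and 1.34 RPM to 3.43 and 3.08 RPM, a change of 1.2. That change was 0.94, with no call, after subtracting the input change of the chromosome.

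The gains were unevenly spread over the chromosomes. Input itself was higher in XEN cells over chromosomes 6, 16, 18 and 19, with median changes of 0.29, 0.42, 0.26 and 0.41, while it was 0.19 on X, 0.12 on 14 and within 0.05 of 0 on the other numbered chromosomes. SOX17 medians on these 4 chromosomes were 0.13, 0.28, 0.07 and 0.21, and lay between -0.32 and -0.11 on the remaining numbered chromosomes and X. Of the 6967 regions tested there, 13% were higher and 9.59% lower, against 5.17% and 18.4% on the others, and they held 33.1% of all regions that were higher. Subtracting the input change of the chromosome left 2218 regions higher and 7801 lower. Among the regions with values given above, those of Garem1, Mical3, Sod1, Slc22a8, Cntn4, Tmem44, Clic6, Nanog, Dppa4, Etv5, Spry4, Gata6, Cdh2, Pdgfrb and Col1a2 lie on these chromosomes. All 10 of the largest rises kept their call after that subtraction, with changes of 3.12 to 4.5. The part of the input in these differences was not tested beyond subtracting it.

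**Figure D5:**
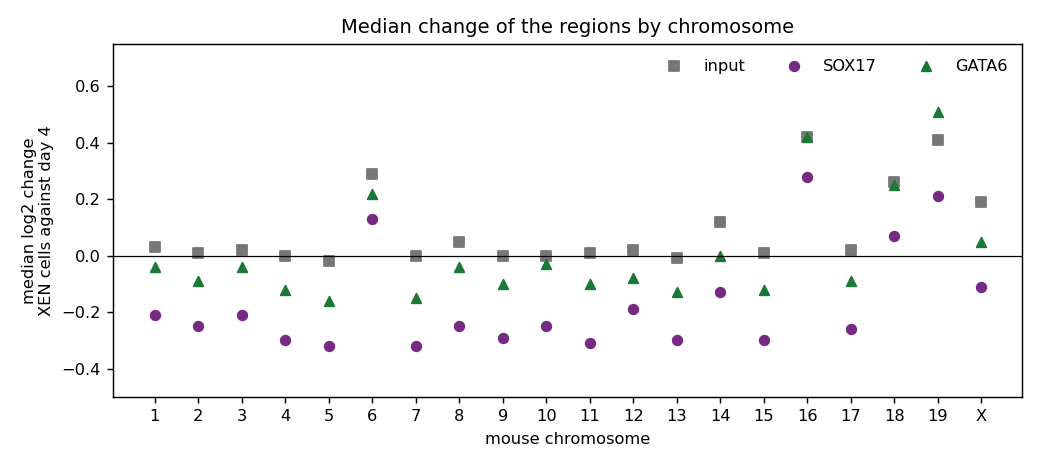
Median log2 change, XEN cells minus day 4, of the input (grey squares), SOX17 (purple circles) and GATA6 (green triangles) over the regions of each mouse chromosome. Input and SOX17 medians reach 0.42 and 0.28 on chromosome 16 and 0.41 and 0.21 on chromosome 19. The single region on Y is left out.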

How the data were processed

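Per the labels and methods, the authors demultiplexed reads with bcl2fastq, trimmed them with cutadapt, aligned them to mm10 with Bowtie2, filtered them with SAMtools, called GATA6 peaks with MACS2, counted reads over merged regions with bamsignals and scored motifs with FIMO. Versions are not given in the sources used here. The deposited table has 105 columns. Its RPM values were pooled by the authors per condition. The sources used here do not say how, and the deposited values were read from their steps as the mean of 2 libraries, each with 1 read added per region. The deposited motif scores and class names were used as given, and 14 columns from samples of other series were not used.

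Each pooled RPM was split into whole reads of 2 libraries by an integer search, which gave an exact and unique answer for 42375 regions at day 4 and for all 42403 in XEN cells. Which library is which numbered replicate is unknown, so the libraries are called deeper and shallower. The input of XEN cells has 3 labelled libraries, while its pooled values split into 2, and whether 1 was left out or some were merged is unknown. The log2 of each library's RPM plus 0.182 was tested with limma 3.58.1 (trend, R 4.3.3) on 2 against 2 libraries, and the GATA6 comparison used an offset of 0.233. Scripts were tested on simulated data. Python 3.11.15, NumPy 2.4.6, pandas 2.3.3, SciPy 1.17.1 and matplotlib 3.10.9 were used. The regions named are the 10 largest rises and falls among called regions at or over percentile 90 of the higher pooled value with no overlap of libraries, the 5 highest regions per condition, and the strongest region of genes in the lists, at most 1 per nearest gene, besides the regions where SOX17 and GATA6 changes differed. The comparison and the lists were chosen with earlier results of these data known. Intervals around counts cover counting error only.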

Additional observations from a re-analysis of the deposited data

Results flagged for a closer look

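Regions are given here because the SOX17 change and the GATA6 change between day 4 and XEN cells differed by the limma test of the difference itself. The SOX17 change minus the GATA6 change was -2.40 near D130040H23Rik, -1.79 near Smlr1, -1.66 at Lancl1, -1.65 near Echs1, -1.64 at Slc44a3, -1.58 at AA986860, -1.55 near Armc2 and 2.86 at Nr5a2. At Armc2 the SOX17 change alone was -0.92, under 2-fold, and at AA986860 it was -2.35 with a GATA6 change of -0.77 that was not called.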

How the results depend on the processing

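No paired analysis was possible because the libraries recovered from the pooled values carry no replicate number. Counts higher and lower were 4236 and 5203 with scaling to the reads on the regions, 556 and 2002 with a pseudocount 10 times larger, and 2128 to 3257 and 6096 to 7485 with 1 library left out, where the lone library is assumed to vary like the other group. The difference from GATA6 was called above and below at 0 and 0 regions with that scaling, at 1 below with centring, at 133 below with the larger pseudocount, at 0 and 1 with one 10 times smaller, at 0 above among regions over the median SOX17 value, and at 0 to 17 and 0 to 699 with 1 library left out. In the order scaling, centring, larger and smaller pseudocount, regions over the median, input change of the region and of the chromosome subtracted, the median change was 0.008, 0.000, -0.065, -0.251, -0.332, -0.294 and -0.263 over all regions, -0.175, -0.215, -0.210, -0.466, -0.478, -0.497 and -0.480 over early regions, and 0.000, 0.019, -0.047, -0.259, -0.553, -0.243 and -0.241 over transient ones. Over late regions it was 0.235 with scaling, 0.197 with centring, -0.068 over the median, and -0.161 and -0.084 with the input changes subtracted. The mean was -0.498 over early and -0.060 over late regions. The correlation of the conditions was 0.815 as Pearson on log2 values, 0.708 on RPM minus input, 0.731 on RPM per kb and 0.543 over the median. The Nr5a2 region turned to -1.15 with its input change subtracted, and the cause of these shifts was not tested. Of 50 called named regions, 35 kept the call under all 15 alternatives. Of 77 uncalled named regions, 26 were called under some alternative, among them one without the fold threshold. Leaving out the added read, chosen after seeing the data, gave 2794 higher and 7437 lower. Regions with few reads limit the comparison, since 469 to 1572 regions had no read in a library.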
